A study of Bos taurus with 12 samples.

Results

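Transcripts of the prolactin receptor (PRLR, ENSBTAG00000025035) and of the transcription factors STAT5A (ENSBTAG00000009496) and STAT5B (ENSBTAG00000010125) were measured in RNA from the fat layer of cow's milk. These 3 genes were taken by their cattle Ensembl IDs from the 24616 genes of the count table. Libraries came in pairs from 6 Holstein cows in early lactation, 1 control and 1 with postruminal lysine (the amino acid delivered past the rumen) from every cow, giving 6 control and 6 lysine libraries. The treatment label states 63 days of lysine, whereas the titles show bare codes of 0 and 63, and no age is given for the cows. Milk fat globules carry slivers of cytoplasm from the secretory epithelium, which is why their RNA is used to sample the gland. The identity of the cells could not be checked against marker genes, because no source used here pairs the other IDs with gene names.

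Prolactin, a pituitary hormone, binds the prolactin receptor at the surface of mammary epithelial cells. The receptor activates the kinase JAK2, which phosphorylates STAT5A and STAT5B, and these then pair, enter the nucleus and switch on milk protein genes and genes of secretory differentiation. STAT5A was first found as a mammary gland factor and is the main form in that tissue, whereas STAT5B is best known for carrying growth hormone signals in liver and muscle. Signalling of this pathway runs through phosphorylation of the STAT5 proteins, which transcript counts do not measure.

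The 2 STAT5 genes are close paralogs and neighbours. In the RefSeq gene table of assembly ARS-UCD2.0, 1 tRNA gene lies between them, and PRLR lies on another chromosome. The same table lists 2 curated transcripts for PRLR, which is known in long and short receptor forms, and 1 each for STAT5A and STAT5B. The deposited counts are per gene, so receptor forms were not separated, and reads from stretches that STAT5A and STAT5B share may have been split or dropped by the counting, whose settings no source used here gives.

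Library totals ranged from 5.45 M to 56.6 M counts (M, the prefix mega), with a median of 20.8 M. The composition differed between libraries, with the single most abundant gene holding between 18.2% and 45.8% of counts, and levels were therefore scaled by the trimmed mean of M values (TMM, factors 0.44 to 1.41). Levels are given as normalised CPM, counts scaled to a common effective library total, and are not corrected for transcript length, so they are compared between libraries and not between genes. In bulk RNA, fewer cells of a type and less RNA per cell cannot be told apart.

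PRLR, the receptor of the pathway, was detected in all 12 libraries with 247 to 3171 reads. In the control libraries it stood at 62.2 normalised CPM in cow 4319, 23.5 in cow 4345, 68.8 in cow 4381, 31.3 in cow 4383, 72.9 in cow 4394 and 63.6 in cow 4408. In the lysine libraries of the same cows it stood at 39.1, 20.2, 96.1, 71.4, 58.6 and 38.7. The 2 lowest of the 12 values were both libraries of cow 4345, and the highest was the lysine library of cow 4381. The groups overlapped, with group means of 53.7 ± 20.9 in control and 54.0 ± 27.2 in lysine libraries (SD, n = 6 each).

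STAT5A, the form first found as a mammary gland factor, was covered by 236 to 1187 reads per library. Its control values were 34.9 normalised CPM in cow 4319, 24.3 in cow 4345, 43.8 in cow 4381, 49.6 in cow 4383, 44.4 in cow 4394 and 48.6 in cow 4408. Its lysine values, in the same order of cows, were 37.3, 18.4, 36.0, 38.0, 55.3 and 32.7. Cow 4345 again gave the 2 lowest libraries, and the lysine library of cow 4394 gave the highest. Means were 40.9 ± 9.68 in control and 36.3 ± 11.8 in lysine libraries (SD, n = 6 each), and the groups overlapped.

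STAT5B, the form linked to growth hormone, was covered by 154 to 725 reads. Control values were 14.5 normalised CPM in cow 4319, 15.1 in cow 4345, 18.3 in cow 4381, 23.5 in cow 4383, 24.4 in cow 4394 and 23.2 in cow 4408. Lysine values in that order were 24.4, 10.1, 22.0, 20.0, 24.9 and 19.5. The lysine library of cow 4345 was the lowest of all 12, followed by the control library of cow 4319 and then the control library of cow 4345. The group means were close, at 19.8 ± 4.43 in control and 20.2 ± 5.37 in lysine libraries (SD, n = 6 each).

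**Figure D1:**
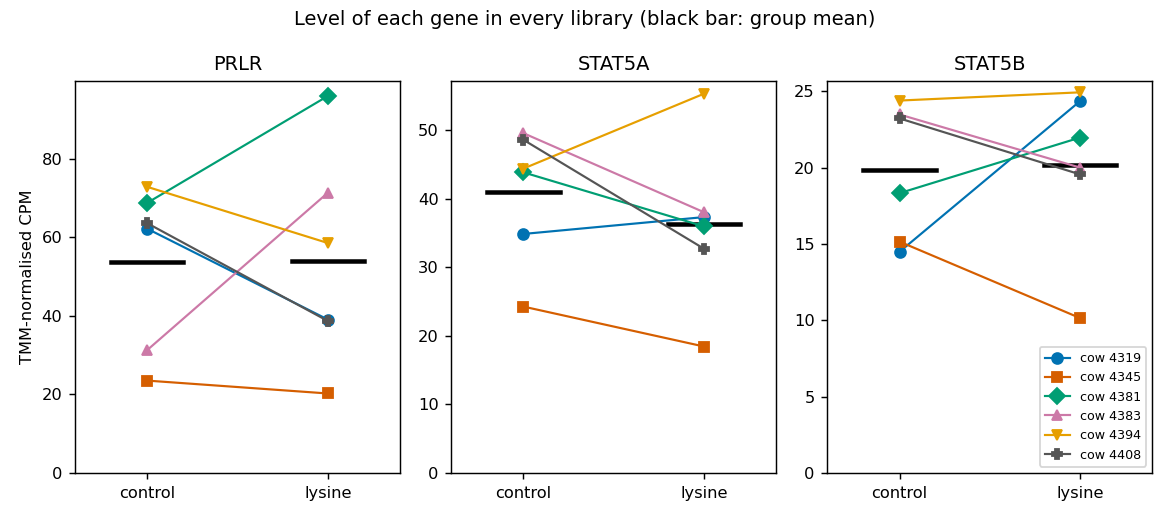
TMM-normalised CPM of PRLR, STAT5A and STAT5B in the control and lysine library of each cow, with lines joining the 2 libraries of a cow and black bars at the group means. The lines cross in every panel, and cow 4345 (orange squares) has the lowest PRLR and STAT5A values in both groups, 23.5 and 20.2 CPM for PRLR.

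The main comparison asked whether lysine supply changed the transcripts of the secreting gland, with each cow as its own control, and none of the 3 genes showed a difference past the test. PRLR was lower with lysine in 4 cows and higher in 2, over a wide range of log2 changes from -0.72 in cow 4408 to 1.19 in cow 4383. The fitted log2 fold change of PRLR was -0.05 ± 0.25 (SE), with a 95% interval from 0.66-fold to 1.41-fold. STAT5A was lower with lysine in 4 cows and higher in cows 4319 and 4394, with a log2 fold change of -0.20 ± 0.18 and a 95% interval from 0.66-fold to 1.14-fold. STAT5B was higher in 3 cows and lower in 3, with a log2 fold change of -0.01 ± 0.22 and a 95% interval from 0.72-fold to 1.38-fold.

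At a Benjamini-Hochberg threshold of 0.05 over 11323 genes, edgeR's quasi-likelihood test, blocked on cow, called 0 of the 3 genes, beside 0% of all genes tested. The adjusted p was 1 for each, and the unadjusted p by edgeR was 0.84 for PRLR, 0.278 for STAT5A and 0.977 for STAT5B. Without adjustment edgeR gave 0 of the 3 genes a p under 0.05, against 2.53% of all genes. DESeq2 and limma voom also called 0 of the 3 genes at either threshold. None of the 3 genes moved the same way in all 6 cows, as 1.56% of tested genes did upward and 1.46% downward. For no member did the 6 control and 6 lysine libraries separate, which 0.194% of all tested genes did. Under TMM the intervals exclude a 2-fold change with lysine in either direction for each of the 3 genes, before any adjustment for the number of genes. With library totals as the only scaling they do not, as the lower bounds were then 0.49-fold for PRLR, 0.416-fold for STAT5A and 0.46-fold for STAT5B.

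The number of cows in which PRLR was lower depended on how the libraries were scaled. With library totals as the only scaling, PRLR was lower with lysine in all 6 cows, by 0.09 to 0.74 on the log2 scale, and 3.46% of all tested genes were likewise lower in all 6 cows. All tested genes together shifted under that scaling, to a median log2 fold change of -0.26 from 0.04 under TMM. The PRLR log2 fold change by library totals was -0.35 (adjusted p = 0.996 by edgeR), or -0.09 relative to that median, the same as under TMM. The change in PRLR under library totals was -0.29 in cow 4383 and -0.13 in cow 4381, the cows in which TMM scaling gave 1.19 and 0.48. In the lysine libraries of these cows the 10 most abundant genes held 86.8% and 82.4% of counts, and their TMM factors of 0.44 and 0.58 were the lowest of the 12.

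Scaling moved the STAT5 genes as well. By library totals STAT5A had a log2 fold change of -0.50 (adjusted p = 0.996 by edgeR, -0.24 relative to the median of all genes) and was lower in 4 of 6 cows. By the same scaling STAT5B stood at -0.31 (adjusted p = 0.996 by edgeR, -0.05 relative to that median) and was lower in 5 of 6 cows. With totals that left out the 10 most abundant genes, a scaling added after the values were seen, the log2 fold changes were -0.12 for PRLR, -0.28 for STAT5A and -0.08 for STAT5B. Each of the 3 genes was then lower in 4 of 6 cows.

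**Figure D2:**
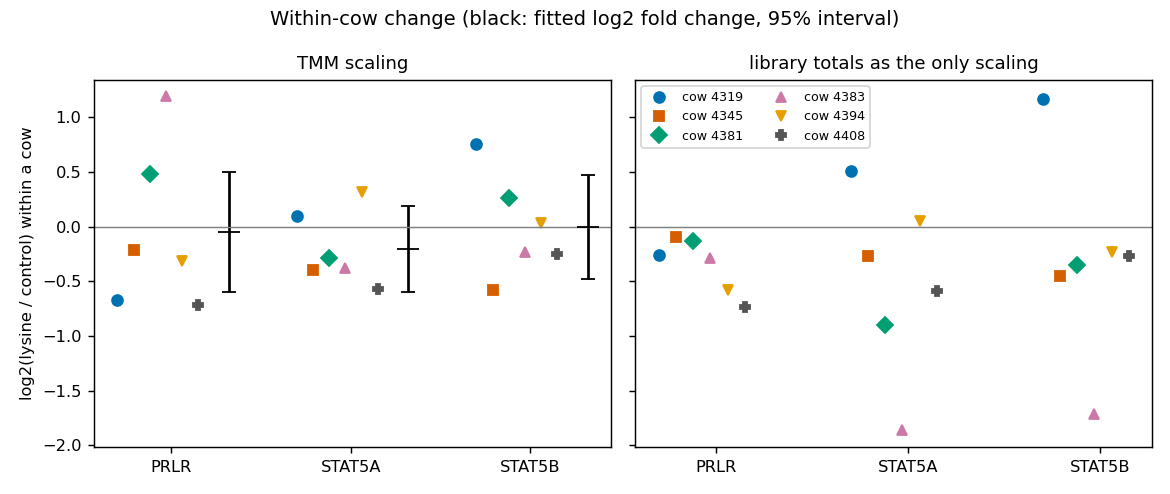
Log2 ratio of lysine to control within each cow for the 3 genes, under TMM scaling (left, with the fitted log2 fold change and its 95% interval in black) and with library totals as the only scaling (right). All 6 PRLR points lie below 0 on the right, whereas on the left cows 4381 and 4383 lie above 0 at 0.48 and 1.19.

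Ratios between members within a library need no scaling. The read-count ratio of STAT5A to STAT5B shows how the 2 paralogs shared the STAT5 reads, and STAT5A had more reads than STAT5B in all 12 libraries. In the control libraries the ratio was 2.41 in cow 4319, 1.60 in cow 4345, 2.39 in cow 4381, 2.11 in cow 4383, 1.82 in cow 4394 and 2.09 in cow 4408. In the lysine libraries it was 1.53, 1.82, 1.64, 1.90, 2.22 and 1.67 in the same order. Since transcript lengths of the annotation used are not given, this is a ratio of reads and not of molecules.

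The STAT5A to STAT5B ratio averaged 2.07 ± 0.317 in control and 1.80 ± 0.245 in lysine libraries (SD, n = 6 each). It was lower with lysine in 4 of 6 cows and higher in cows 4345 and 4394, with a mean log2 change of -0.20 ± 0.38 (SD over 6 cows). The mean change did not differ from 0 past the test (exact two-sided sign-flip permutation p = 0.25, where 6 cows allow no p below 0.0313). As a share of STAT5 reads, STAT5A ran from 60.5% (95% Wilson interval 55.6% to 65.2%) with lysine in cow 4319 to 70.6% (68.2% to 73.0%) in that cow's control library. The intervals of 7 of the 12 libraries excluded the pooled share of 65.5%. In cows 4319 and 4381 the control and lysine intervals lay apart, with the lower share in the lysine library, and in the other 4 cows they overlapped. These intervals treat every read as independent. The reads carry no molecular identifiers and several may stem from 1 molecule, so the intervals may be too narrow, and with 1 library per condition an interval that lies apart does not show a difference between conditions.

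**Figure D3:**
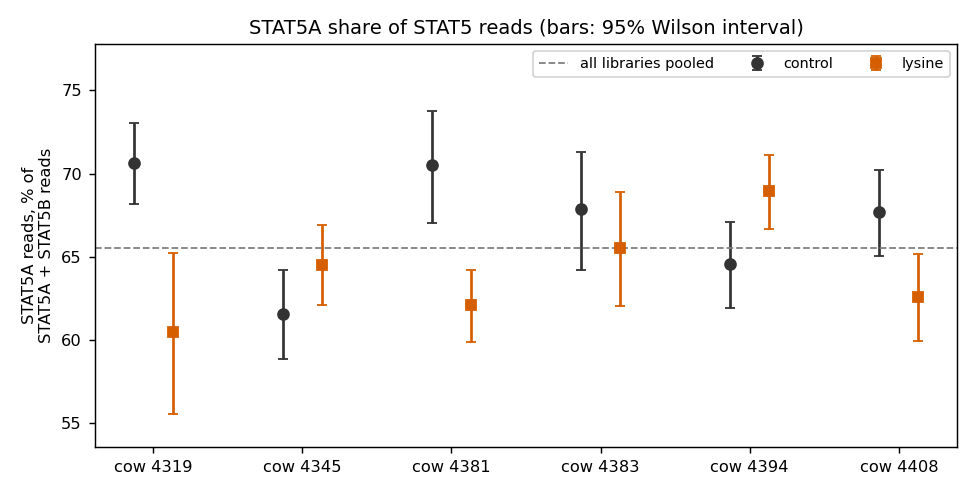
STAT5A reads as a percentage of STAT5A plus STAT5B reads in each library (the vertical axis does not start at 0), with 95% Wilson intervals; black circles are control and orange squares lysine libraries, and the dashed line is the pooled share of 65.5%. The 2 intervals of cows 4319 and 4381 lie apart, and cows 4345 and 4394 have the higher point with lysine.

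The receptor varied against the STAT5 genes by more than the STAT5 genes varied against each other. The PRLR to STAT5A read ratio ran from 0.632 (cow 4383, control) to 2.67 (cow 4381, lysine), a range of 4.23 times, where the STAT5A to STAT5B ratio spanned 1.57 times. The PRLR to STAT5B ratio ran from 1.33 to 4.37. With lysine, the PRLR to STAT5A ratio was higher in 3 cows and lower in 3, with a mean log2 change of 0.16 ± 0.89 (SD over 6 cows). In cow 4383 the ratio was 2.97 times as high with lysine as without, and in cow 4319 it was 0.587 times as high. With a cow left out the mean log2 change ran from -0.12 (without cow 4383) to 0.35 (without cow 4319), and it was 0.04 without cow 4381. The PRLR to STAT5B ratio had a mean log2 change of -0.04 ± 0.95 and was likewise higher in 3 cows; with a cow left out it ran from -0.33 (without cow 4383) to 0.24 (without cow 4319). These ratios to PRLR were added after the values were seen and were not tested.

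Under TMM scaling, PRLR had a wide spread over the 12 libraries among tested genes of like abundance. The SD of its log2 level was 0.71, larger than that of 91.2% of the 841 genes within 0.5 log2 units of its mean level, whose median SD was 0.39. The SD of STAT5A was 0.45, above 61.8% of 1121 such genes, and that of STAT5B was 0.39, above 34.8% of 1921 such genes. The contrast between the receptor and the STAT5 genes depended on the scaling. By library totals, mean CPM and SD were 52.3 ± 21.3 for PRLR, 40.3 ± 16.6 for STAT5A and 20.9 ± 8.17 for STAT5B. Relative to the mean these 3 spreads were alike. Under TMM the values were 53.9 ± 23.1, 38.6 ± 10.6 and 20.0 ± 4.70. By mean normalised CPM, PRLR ranked 896th, STAT5A 1365th and STAT5B 2901st of 11323 tested genes, an order of reads and not of molecules.

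**Figure D4:**
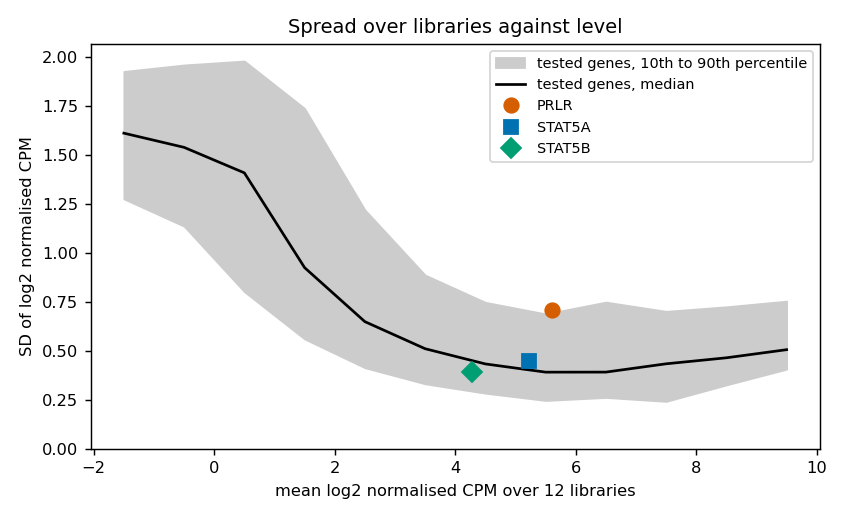
SD of log2 normalised CPM over the 12 libraries against the mean log2 level, with the median (line) and the 10th to 90th percentile (grey) of tested genes in bins of 1 log2 unit. PRLR lies at the upper edge of the grey band with an SD of 0.71, and STAT5A (0.45) and STAT5B (0.39) lie near the median.

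Levels ranged widely between cows, although not past the main test. The mean of the 2 libraries of a cow ran from 21.9 normalised CPM in cow 4345 to 82.5 in cow 4381 for PRLR, a range of 3.77 times, with the other 4 cows between 50.6 and 65.7. For STAT5A it ran from 21.4 in cow 4345 to 49.9 in cow 4394, and for STAT5B from 12.6 to 24.7 in the same cows. Cow took 75.0% of the variance of log2 level for PRLR, 81.5% for STAT5A and 68.4% for STAT5B, against a median of 55.5% over all tested genes. An F test of the cow terms called 0 of the 3 genes (edgeR quasi-likelihood, adjusted p = 0.215 for PRLR, 0.279 for STAT5A and 0.65 for STAT5B), beside 1.42% of all tested genes. Before adjustment the edgeR values were 0.0209 for PRLR and 0.0364 for STAT5A, and 0.276 for STAT5B.

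The call for PRLR between cows changed with the tool and the filter. A DESeq2 likelihood ratio test gave PRLR an adjusted p of 0.0299, in a test that called 13.4% of all genes, and edgeR without a low-count filter gave 0.0171, with 5.01% of genes called. Neither called STAT5A or STAT5B. Without cow 4345 the unadjusted p by edgeR was 0.421 for PRLR, 0.64 for STAT5A and 0.885 for STAT5B. By library totals the 2 libraries of cow 4345 remained the lowest for PRLR, at 30.4 and 28.5 CPM, but for STAT5A and STAT5B the lysine library of cow 4383 was then the lowest, at 16.9 and 8.88 CPM.

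The cow means of the 2 STAT5 genes followed each other closely. Over the 6 cows, the mean log2 levels of STAT5A and STAT5B correlated at r = 0.996 (exact permutation p = 0.0014, adjusted p = 0.0083) and were in the same order (Spearman rho = 1, exact permutation p = 0.0028, adjusted p = 0.0167). The geometric means were 21.2 and 12.4 normalised CPM in cow 4345, 36.1 and 18.8 in cow 4319, 39.7 and 20.1 in cow 4381, 39.9 and 21.3 in cow 4408, 43.4 and 21.7 in cow 4383, and 49.6 and 24.7 in cow 4394. Without cows 4345 and 4394, the farthest from the median STAT5A level, r was 0.915 over 4 cows, and with any single cow left out it was between 0.974 and 0.999. Among 7357 other genes with mean levels of at least 5 CPM, 2 genes (0.0272%), STAT5B being one, correlated this highly with STAT5A over cow means. By library totals r was 0.98 and rho 0.829. Over the 12 libraries taken singly, under TMM, r was 0.864 and rho 0.797, and STAT5B ranked 90th among the genes most like STAT5A. The relation over cow means was chosen after the levels had been seen. The 2 levels share each library's scaling factor, and shared reads of paralogs would move them together; the part of either in this relation was not tested.

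The receptor followed the STAT5 genes less closely. PRLR cow means correlated with those of STAT5A at r = 0.863 (exact permutation p = 0.0569, adjusted p = 0.122; rho = 0.429, exact permutation p = 0.419, adjusted p = 0.629) and with those of STAT5B at r = 0.842 (exact permutation p = 0.0611, adjusted p = 0.122; rho = 0.429, exact permutation p = 0.419, adjusted p = 0.629). Both changed with the cows included. Without cow 4345 r was 0.234 with STAT5A and 0.146 with STAT5B, and without cow 4381 it was 0.972 and 0.973. With any other single cow left out, r was 0.853 to 0.903 with STAT5A and 0.830 to 0.873 with STAT5B. Without cows 4345 and 4381 r was 0.757 and 0.772 over 4 cows. The difference between these correlations and that of the STAT5 pair was not tested. Cow 4381, with the highest PRLR, was the third lowest of the 6 for both STAT5 genes.

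**Figure D5:**
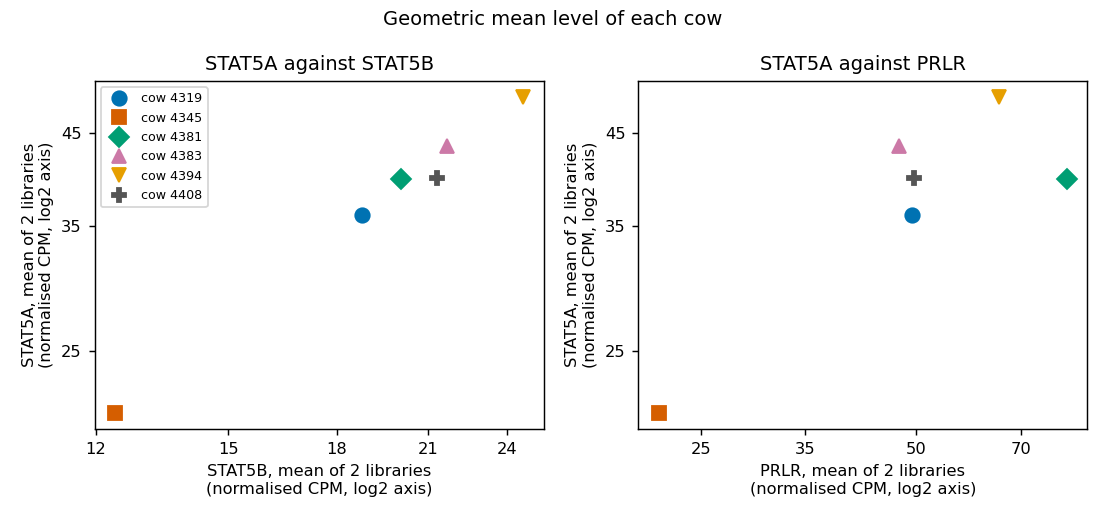
Geometric mean level of each cow over its 2 libraries in normalised CPM on log2 axes, STAT5A against STAT5B (left) and STAT5A against PRLR (right). On the left the 6 cows rise in 1 order from cow 4345 (21.2 CPM for STAT5A, 12.4 for STAT5B) to cow 4394 (49.6 and 24.7); on the right cow 4381 lies far to the right at 81.3 CPM for PRLR.

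Changes within cows were compared in the same way, and whether they were less closely related than the cow means was not tested. The log2 changes with lysine of STAT5A and STAT5B correlated at r = 0.591 over the 6 cows (exact permutation p = 0.231, adjusted p = 0.346; rho = 0.771, exact permutation p = 0.103, adjusted p = 0.308) and at 0.476 over 4 cows without cows 4319 and 4394. Those of PRLR correlated with STAT5A at r = -0.25 (exact permutation p = 0.651, adjusted p = 0.678; rho = 0.0857, exact permutation p = 0.919, adjusted p = 1), and at 0.207 without cows 4381 and 4383. With STAT5B the PRLR changes gave r = -0.209 (exact permutation p = 0.678, adjusted p = 0.678; rho = -0.0286, exact permutation p = 1, adjusted p = 1), and -0.544 without the same cows. The adjusted values are over 6 relations, which were chosen after the levels had been seen, and 3 cows per B code are too few to give them within codes.

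Every sample description includes a B code of 1 or 2, shared by both libraries of a cow, and a P code of 1 to 4; no label explains them. PRLR had a log2 fold change with lysine of 0.05 ± 0.37 (SE) in the 3 B1 cows and -0.15 ± 0.36 in the 3 B2 cows. STAT5A had 0.01 ± 0.24 in B1 cows and -0.42 ± 0.24 in B2 cows. STAT5B had 0.18 ± 0.30 and -0.19 ± 0.30. The difference in lysine effect between the codes passed the test for 0 of the 3 genes (edgeR interaction test, adjusted p = 0.941, 0.779 and 0.856), beside 0% of all tested genes, and none of the 3 had an unadjusted p under 0.05, against 6.92% of all genes.

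Relative to the control, the lysine library had a P code higher by 3 in cows 4394 and 4408 and lower by 1 in the remaining 4 cows. PRLR had a log2 fold change with lysine of 0.19 ± 0.29 (SE) in those 4 cows and -0.52 ± 0.41 in cows 4394 and 4408. STAT5A had -0.24 ± 0.23 and -0.13 ± 0.33, and STAT5B had 0.05 ± 0.28 and -0.11 ± 0.39. These differences passed the test for 0 of the 3 genes (edgeR interaction test, adjusted p = 0.814, 0.975 and 0.972), beside 0% of all tested genes, and none had an unadjusted p under 0.05, against 7.03% of all genes. For PRLR the 95% interval of the difference ran from -1.81 to 0.39 on the log2 scale around -0.71, which became -0.38 without cow 4383 and -0.998 without cow 4319.

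Genes whose pattern over the 12 libraries was most like that of each member were sought among 7357 others averaging at least 5 CPM, by Pearson correlation of log2 level. The closest to PRLR was ENSBTAG00000027126 (r = 0.941), with 285 to 962 normalised CPM over the libraries. The closest to STAT5A was ENSBTAG00000014129 (r = 0.957, 7.57 to 28.6 CPM), and the closest to STAT5B was ENSBTAG00000012460 (r = 0.938, 442 to 1164 CPM). STAT5B ranked 90th among the genes most like STAT5A, and PRLR ranked 899th. These are the highest of many correlations over 12 libraries from 6 cows, given as a description with no test.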

How the data were processed

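RNA sequencing counts of 12 milk fat libraries were used. The authors deposited whole-number read counts per Ensembl cattle gene, not normalised; the aligner, counting tool, strand setting, genome build and annotation were not given in the sources used here. Per the labels' protocols, milk was centrifuged, and the fat was extracted with Trizol and cleaned on a column before standard Illumina library preparation. Every column matched 1 sample's description. Of the gene IDs, 0 were paired with a symbol in the table of 37063 RefSeq genes; the symbols of the 3 genes came with their IDs in the selection rule, lists of pathway and marker genes were not analysed, and no sequences, lengths or positions are given. The 3 genes and all lists were chosen with earlier results of these data known.

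Genes were kept by filterByExpr (minimum count 10; 11323 genes with 99.9% of counts) and fitted with edgeR 4.0.16 in R 4.3.3 (TMM, robust quasi-likelihood, cow and treatment, two-sided, Benjamini-Hochberg over all tested genes, threshold 0.05). SEs were derived from the F statistics. Since each cow supplied both a control and a lysine library, the design was paired by animal and blocked on cow; across genes their deviations from group means correlated at -0.02 to 0.66. Whether a cow's libraries differ by more than technical spread cannot be told from 1 library per condition. Spread and likeness were taken on log2 CPM (prior count 2). DESeq2 1.42.0, limma 3.58.1 (voom), other scalings and filters, no block, library total as a covariate and leaving out each cow were alternatives. The edgeR fit was tested on simulated data. Genes named are the 3 members and the gene most like each.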

Additional observations from a re-analysis of the deposited data

Results flagged for a closer look

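The STAT5B level in the lysine library of cow 4345 stood apart from the other 5 lysine libraries, at 10.1 normalised CPM against 19.5 in the next lowest (Dixon's test at the 95% level). It was 1 such value in 12 groups of 6 examined, and chance gives about 1 in 20 groups. The control library of the same cow was at 15.1 CPM, and without cow 4345 the log2 fold change of STAT5B with lysine was 0.12. By library totals the lysine library of cow 4345 was the fourth lowest of the 12 for STAT5B.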

How the results depend on the processing

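None of the 3 genes passed the threshold for lysine under any of the 15 alternatives, and of all genes 1 was called without a low-count filter and 0 otherwise. STAT5A kept its direction in all 15, at -0.31 to -0.12 with a cow left out. PRLR, at -0.05 in the main fit, became 0.0077 with no replicate block and -0.22 with library total as a covariate. With a cow left out PRLR ran from -0.29 (without cow 4383) to 0.10 (without cow 4408). STAT5B became 0.0013 with DESeq2, 0.0023 with RLE factors, 0.022 with no replicate block and 0.079 with library total as a covariate, and ran from -0.15 to 0.12 with a cow left out. The block changed no call; the STAT5A to STAT5B ratio gave an exact permutation p of 0.128 with no block and mean log2 changes of -0.30 to -0.11 with a cow left out. For PRLR between cows, the adjusted p was 0.0299 with DESeq2 and 0.0171 without a filter; the cause was not tested. The difference in lysine effect between B codes turned for PRLR to 0.059 by library totals and ran from -0.58 to 0.34 with a cow left out. That between P code orders turned for STAT5B to 0.095 by library totals (-0.37 to 0.076 with a cow left out) and for STAT5A ran from -0.33 to 0.55; leaving out cow 4394 or 4408 leaves 1 cow on that side, assumed to vary like the others. Members had at least 154 reads per library; without molecular identifiers the number of reads does not bound the counting error.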
